A study of Bos taurus with 72 samples.

Results

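The 100 genes described here are those that lay lowest in primary bovine mammary epithelial cells (BMECs) kept without essential amino acids (EAA) and higher in every medium to which 1 EAA had been added. They are 100 of the 29550 genes of the deposited expression table, which holds 27570 Ensembl identifiers, and were chosen on the measured values. Of the 8643 Ensembl genes whose mean reached 5 FPKM (reads on a gene divided by its length and by a factor for the library) over all libraries, 700 had their lowest treatment median of log2(FPKM + 1) in the medium without EAA. Of these, 553 did not have their highest median in the complete medium, and 412 of the 553 also did not have leucine and valine as the highest pair. The score of a gene was the lowest of its 10 single-EAA medians minus its median without EAA, and the 100 highest scores made the list. Every difference from the medium without EAA that is given below comes from values that also chose the genes, so these differences are descriptions and not tests.

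RNA was collected after 6 h of treatment from wild-type BMECs of 6 passages that had been starved of serum overnight. NEG was DMEM-F12 without EAA and POS was complete DMEM-F12, and the other 10 media were NEG with Arg, His, Ile, Leu, Lys, Met, Phe, Thr, Trp or Val added. Each of the 12 media had 6 libraries, 72 in all. The replicates are named biological, but neither the labels nor the methods say whether they came from separate animals or cultures, so p-values measure the spread between these libraries, which may be partly technical. The cells were of 1 kind in 1 culture system, and the paper and the labels name different library kits and culture plates.

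Cells sense a lack of amino acids in more than 1 way. Uncharged transfer RNAs activate the kinase GCN2 and, through it, the transcription factor ATF4, while the kinase complex mTORC1 is active when amino acids, leucine and arginine among them, are plentiful. In mammary epithelium these routes are among those that affect how much milk protein is made. The identifiers were not paired with gene symbols by the files, and 0 of them were found in the reference table of 37063 bovine genes, so the members could not be sorted into these pathways, the epithelial markers could not be checked, and no sequence is shown. The 2 members with the highest scores are named by identifier and the others by their rank. What could be read from the table besides the level was the length of each gene and the reads behind each value, since the FPKM of all 23683 genes above 0 resolved into whole reads. Reads on genes ranged from 12006026 to 18602430 per library, and they count reads without molecular identifiers. Replicate 1 of Leu (Leu_1), Arg_4 and POS_4 had between 10495 and 13537 genes above 0, the fewest of all libraries, and NEG_2 stood apart from the other NEG libraries in the members. In the paper's read statistics Arg_4 and Leu_1 also had the lowest mapping efficiencies of all libraries.

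The scores were small for most members. ENSBTAG00000042696 had the highest score, 1.33 on the log2(FPKM + 1) scale, and ENSBTAG00000054570 the second, 0.88. The score was over 0.5 in 7 members and under 0.3 in 81, and it was 0.41 at rank 10, 0.21 at rank 50 and 0.16 at rank 100. The last 3 members had scores of 0.165, 0.164 and 0.162, and the first 3 genes outside the list had 0.159, 0.158 and 0.158. The edge of the list therefore lies in a smooth series of scores.

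The members fell into 2 classes by gene length, which entered the rule only through FPKM. Of the 100 members, 19 were shorter than 300 bp, 1 was 522 bp long and 80 were between 1240 and 13671 bp. These limits were set after the lengths were seen. The short members were 56 to 285 bp long and took 9 of the first 10 ranks, and 14 of the first 20. As background, annotated genes of such a length are mostly small RNAs of the nucleus and nucleolus, microRNA precursors or fragments of genes, many of which lack the poly(A) tail by which the study's libraries were selected. Which of these the 19 members are was not read from the files. They rested on a median of 18 reads per library, with members between 6 and 136, while the long members rested on a median of 1024. At least 1 library held no read in 10 of the short members and in 0 of the long ones.

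**Figure D1:**
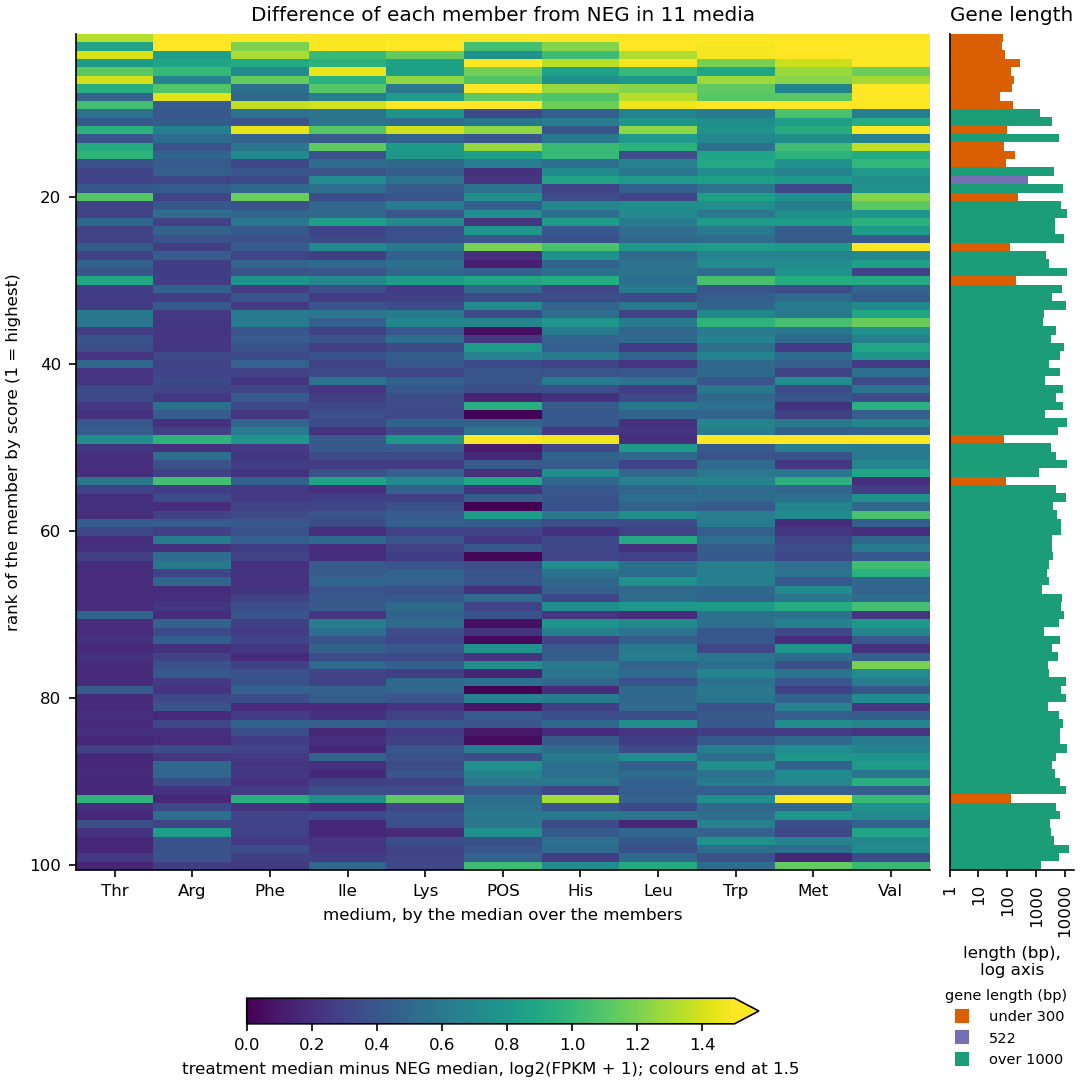
Each row is 1 of the 100 members, ordered by score, and each column a medium. Colour gives the treatment median minus the NEG median in log2(FPKM + 1), and the bars at the right give gene length on a log axis. The bright rows at the top are members under 300 bp, and Val is the brightest column, with the largest difference in 49 members.

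Long genes were more common in the list than among all genes whose mean reached 5 FPKM. In the list 50 members were 4000 bp or longer, which is 3.14% of the 1594 genes of that length, and the median length was 3932 bp against 2387 bp over the 8643 genes. Of the 657 genes between 500 and 1000 bp, 1 was a member (0.152%), and of the 154 genes between 300 and 500 bp none was. Genes under 300 bp were members most often, with 19 of 183 (10.4%). The same shape was found for all 412 genes that met the conditions before the score was applied. They made up 16.9% of genes under 300 bp, 0.609% of those from 500 to 1000 bp, 3.75% of those from 2000 to 4000 bp and 12.7% of those of 4000 bp or more.

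The opposite list was built by turning each condition round, with NEG the highest of the 12 medians. Its 100 genes had a median length of 1112 bp, and 39 of them were between 300 and 1000 bp, 4 were under 300 bp and 1 was over 4000 bp. The lengths of the 2 lists thus differed but overlapped. Between 1000 and 2000 bp lay 8 members and 49 genes of the opposite list, and between 2000 and 4000 bp 22 and 7. The median of the genes' mean levels was 11.4 FPKM in the members, 28.5 FPKM in the opposite list and 17.4 FPKM over all 8643 genes.

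**Figure D2:**
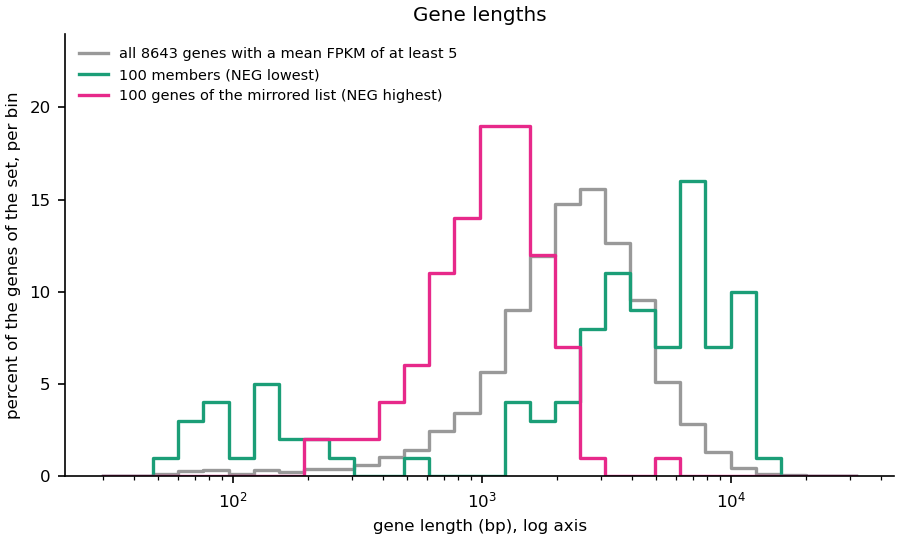
The horizontal axis is gene length in bp on a log scale and the vertical axis the percent of each set per bin. The members peak below 300 bp and above 4000 bp, the 100 genes with NEG highest lie mostly between those peaks, and all 8643 genes peak between 2000 and 4000 bp.

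Among the single EAA, valine gave the largest differences from NEG and threonine the smallest. Over the 100 members the median difference was 0.72 in Val (1.65-fold on the FPKM + 1 scale), 0.61 in Met, 0.59 in Trp, 0.52 in Leu and 0.51 in His. It was 0.41 in Lys, 0.39 in Ile, 0.36 in Phe, 0.35 in Arg and 0.28 in Thr. Over all 8643 genes the same medians were below 0 in each of the 11 media, from -0.13 in Val to -0.03 in Lys. Val had the highest median of the 11 media in 49 members, Met in 18, Trp in 14 and Leu in 10, and Lys in none. Thr was the lowest single-EAA medium in 44 members and Arg in 22, and Trp in none. The rule removed genes with Leu and Val as the highest pair, so these counts are of what was left.

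The order of the media was not sharp at the level of libraries. The level of the members in a library was taken as the median, over members, of the difference from the NEG median. In Val it was 0.199 in the lowest library, 0.722 in the median and 0.820 in the highest. In Thr the lowest was 0.171, the median 0.267 and the highest 0.447, so that Val_3 lay inside the range of Thr while the other Val libraries lay above it. In NEG the lowest was -0.829, the median 0.0152 and the highest 0.0879. All 60 single-EAA libraries lay above the highest NEG library in this level, which the choice of the members favours. The ranges of media that were neighbours in the order of medians overlapped in every case.

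Short and long members differed in size of change and in how they ordered the media. The median difference of the 19 short members was 1.62 in Val, 1.12 in Met, 1.06 in Trp and 1.03 in His, and 0.67 in Arg, the smallest. In the 80 long members it was 0.67 in Val, 0.55 in Trp, 0.53 in Met and 0.51 in Leu, and 0.22 in Thr, the smallest. Thr was thus the lowest medium for the long members, with 39 of 80, but not for the short ones, where Arg was lowest in 8 of 19 and Thr in 4. No long member had a difference over 1 in Thr, Arg, His, Ile, Leu, Lys, Phe or Trp, and 7 of them did in Val and 3 in Met.

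**Figure D3:**
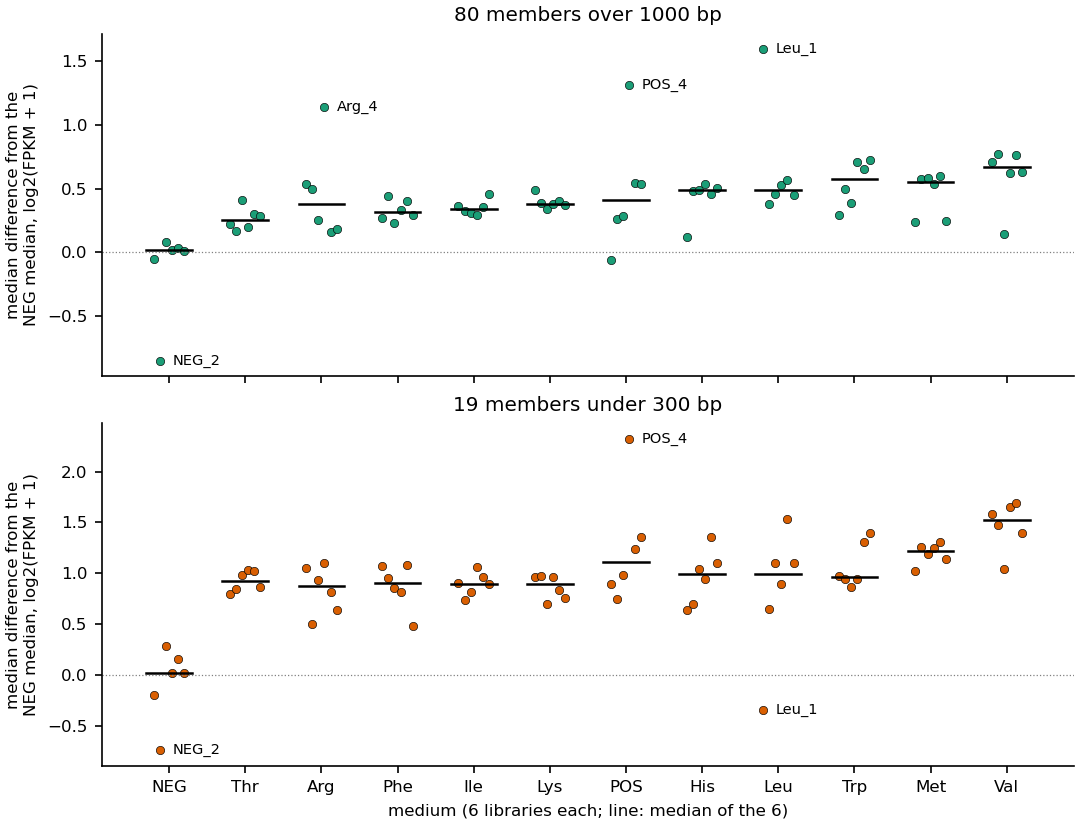
Each point is a library and its height the median difference of the long (top) or short (bottom) members from their NEG medians, in log2(FPKM + 1), with a line at the median of the 6 libraries. Leu_1, Arg_4 and POS_4 are the highest libraries for the long members and NEG_2 the lowest. Leu_1 is at -0.346 for the short members and at 1.59 for the long ones.

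ENSBTAG00000042696, 69 bp long, had 1.07 FPKM in the lowest NEG library, 3.10 in the median and 6.41 in the highest, on 1 to 7 reads. In Val its FPKM were 13.5, 29.8 and 55.1 (lowest, median and highest), on 17 to 57 reads. In Met they were 8.35, 22.4 and 32.8, in His 10.6, 18.5 and 40.5, in Ile 8.19, 16.9 and 18.8, and in Trp 6.60, 12.1 and 19.2. These 5 media did not overlap NEG. The lowest values overlapped NEG in Leu (0, 17.7 and 30.9 FPKM), Arg (5.12, 12.5 and 36.3), Lys (4.24, 11.4 and 25.2), Phe (3.64, 11.3 and 16.6) and Thr (2.97, 8.76 and 16.9). In POS the FPKM were 0, 16.7 and 32.3, with no read in POS_4. Leu_1 was the other library without a read, where a count of 0 has an upper limit of 3 reads.

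ENSBTAG00000054570, 67 bp long, had 0.917 FPKM in the lowest NEG library, 2.30 in the median and 10.7 in the highest, on 1 to 11 reads. Its medians were highest in Leu (18.7 FPKM), Val (14.8) and Met (14.4) and lowest in Thr (5.00). The range in Leu ran from 0 to 28.3 FPKM and that in Thr from 1.77 to 10.0. No medium stood clear of NEG in every library, because NEG_3 alone, at 10.7 FPKM, lay above the lowest library of each of the other 11 media. The second highest score of the list thus rests on medians that a few reads set.

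The other short members near the top were of the same kind. The member of rank 3, 85 bp long, had a NEG median of 9.19 FPKM and a mean of 27.1 FPKM over all libraries, and in none of the 10 single-EAA media did all its libraries lie above NEG. At rank 4, a member 285 bp long stood clear of NEG in 4 of the 10 media, on a median of 63 reads per library. At rank 6, a member 174 bp long was clear in 5 media, on a median of 35 reads, and it was 1 of the 2 members that were highest in Thr. In 11 of the 19 short members no single-EAA medium was clear of NEG in every library. This was not counted over all genes. In a single medium, between 5.83% (Thr) and 20.1% (Leu) of the 8643 genes were clear of NEG.

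The first long member, at rank 10 and 1374 bp, had 0.377, 3.04 and 4.31 FPKM in NEG (lowest, median and highest library) on 7 to 91 reads. It was highest in Met, with 6.25, 7.48 and 9.06 FPKM, which did not overlap NEG, and lowest in Arg, with 3.57, 4.39 and 6.51 FPKM, which did. In POS it had 2.88, 4.09 and 9.04 FPKM, and POS_4 was the highest library.

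**Figure D4:**
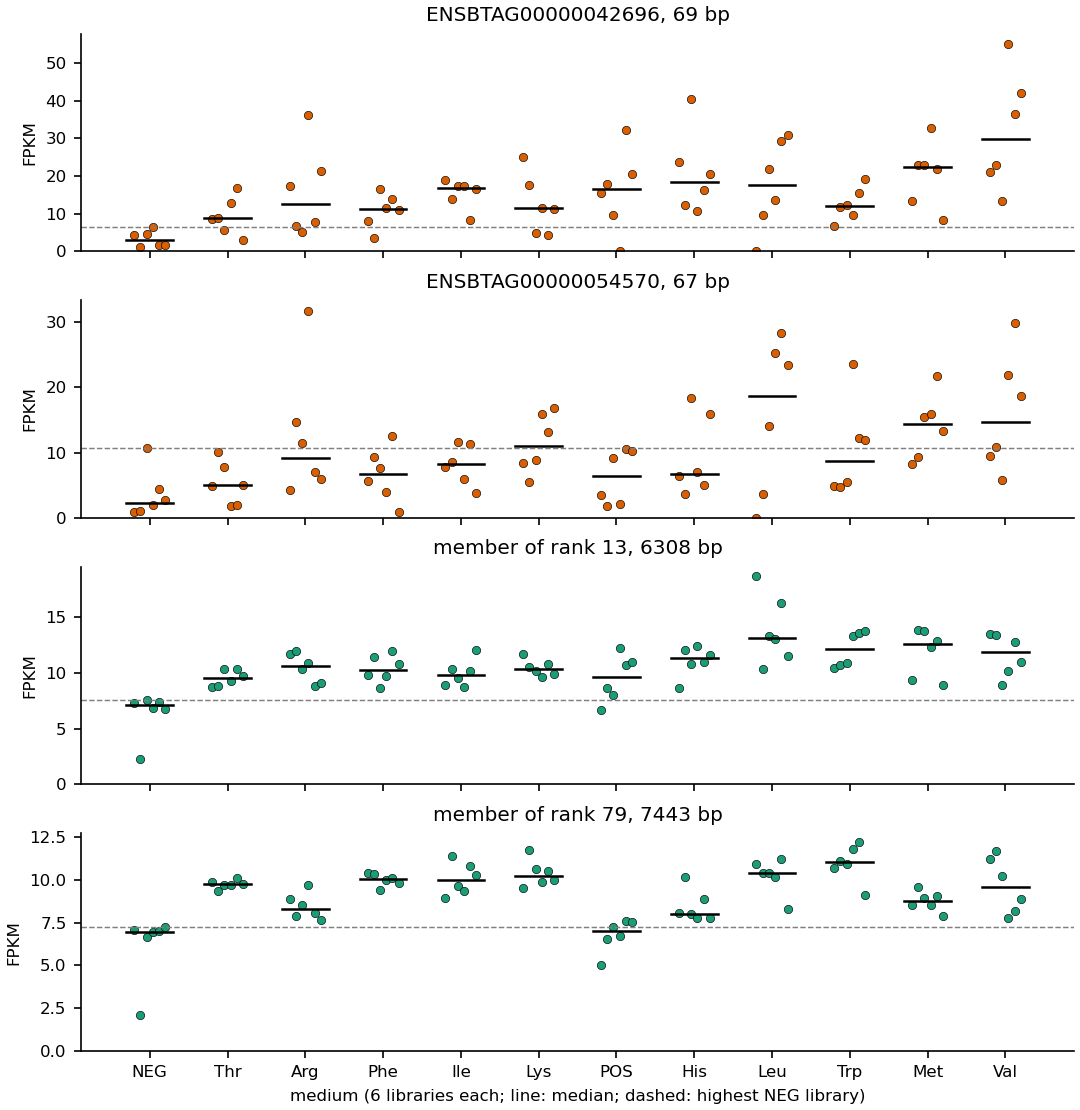
FPKM of 4 members in each of the 6 libraries of the 12 media, with a line at each median and a dashed line at the highest NEG library. The 2 short members at the top overlap NEG in most media, while for the members of rank 13 and 79 all 60 single-EAA libraries lie above the dashed line.

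All 60 single-EAA libraries lay above all 6 NEG libraries in 12 of the 8643 genes (0.139%), and 5 of those 12 were members, at ranks 13, 25, 29, 33 and 79. All 5 were long, at 6308, 8845, 11513, 10785 and 7443 bp. The member of rank 13 had 2.30 FPKM in the lowest NEG library, 7.10 in the median and 7.59 in the highest. In Leu, its highest medium, these were 10.3, 13.2 and 18.7 FPKM, and in Thr, its lowest single EAA, 8.77, 9.55 and 10.4. Its median was 1.86 times that of NEG in Leu and 1.35 times in Thr, and the libraries of both media lay clear of NEG. Without NEG_2, whose 2.30 FPKM was far under the other NEG libraries, the separation from NEG would be the same, since the highest NEG library sets it.

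The member of rank 25 had 2.19, 6.15 and 6.57 FPKM in NEG, 8.39, 9.39 and 11 in Trp and 6.92, 7.75 and 9.01 in Thr. Its single-EAA medians were close together, between 1.26 and 1.53 times that of NEG, and its POS libraries, at 5.60 to 13.2 FPKM, overlapped NEG. The member of rank 29 had 8.54, 23.1 and 23.9 FPKM in NEG (lowest, median and highest library) and was highest in Met, with 32.3, 40.3 and 43.8 FPKM. Its lowest medium was Arg, with 26.8, 28.3 and 34.7 FPKM. That of rank 33 had 16.5, 27.1 and 28.2 FPKM in NEG and was highest in Val, with 30.3, 45.2 and 48.4 FPKM. In POS the gene of rank 33 had 32.3, 45.2 and 86.2 FPKM, so that its complete medium was as high as its highest single EAA and also clear of NEG.

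The member with the highest level of the list, at rank 70 and 9075 bp long, had a mean of 1245 FPKM. It had 422, 992 and 1066 FPKM in NEG. Its medians were 1464 FPKM in Met, 1457 in Trp, 1384 in Thr and 1383 in Lys, and they were 1133 in Arg and 1138 in Leu. For this gene threonine was therefore among the higher media, unlike in most members.

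The place of the complete medium varied from member to member within the limits of the rule. The rule kept genes with NEG lowest and removed those with POS highest, so POS could be neither. The median difference of POS from NEG was 0.44, between Lys and His, and the quartiles over members were 0.24 and 0.74, compared with 0.48 to 0.95 in Val. Ordered from the lowest median to the highest, POS was second, directly above NEG, in 22 members and eleventh, directly under the highest, in 21. In 22 members POS lay under all 10 single-EAA medians, a share close to the 19.4% of all 8643 genes, to which neither condition was applied. In 10 long members the POS median was within 0.1 of NEG, with a median difference of 0.04, while the median over the single EAA was between 0.23 and 0.59. In 25 long members POS was at place 10 or 11, with a median difference from NEG of 0.67. The short members had POS above the middle of the single EAA in 15 of 19.

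The member of rank 79 is an example of the first kind. It had 2.08, 6.97 and 7.26 FPKM in NEG and 5.01, 6.99 and 7.59 FPKM in POS, so the 2 control media overlapped, with medians almost the same. In Lys it had 9.53, 10.2 and 11.7 FPKM, in Leu 8.31, 10.4 and 11.2, and in Thr 9.37, 9.73 and 10.1. All libraries of these media lay above the highest library of POS as well as that of NEG.

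The number of members whose 6 libraries all lay above all 6 of NEG was 72 in Lys, where 12.5% of the 8643 genes did so, 71 in Trp (8.56%), 65 in Leu (20.1%) and 63 in Phe (8.86%). It was 56 in Met (9.96%), 54 in Ile (12.1%), 52 in Val (5.91%), 45 in His (11.4%), 40 in Thr (5.83%) and 37 in Arg (5.96%). In POS it was 20, against 9.29% of all genes. Among long members the median number of single-EAA media that stood clear of NEG was 7 of 10, and among short members it was 0. This number was not counted over all genes. The rule used these contrasts, so nothing about the members is read from the counts.

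By limma on log2(FPKM + 1) with a trended prior, in the 12121 genes whose mean reached 1 FPKM, the members called higher at a Benjamini-Hochberg adjusted p under 0.05 were 97 in Trp (15% of all genes tested), 94 in Val (25.3%), 86 in His (23.4%), 83 in Met (17.7%) and 81 in Lys (13.9%). They were 66 in Leu (20.7%), 63 in Ile (15.8%), 40 in POS (14.3%), 37 in Phe (4.23%), 13 in Arg (2.29%) and 1 in Thr (0.033%). The single member called in Thr had rank 34, and 80 of the 97 called in Trp were long. No member was called higher in all 10 single-EAA media, and 58 were called in 7 or more. The same counts were not taken over all genes, so there is no share to set beside them. These contrasts share the NEG libraries and were used by the rule, so again they describe the members and test nothing about them.

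The small counts depended on the fit and on single libraries. In 1 fit of all 12 treatments the members called were 79 in Arg (12.3% of all genes), 25 in Phe (2.55%) and 21 in Thr (2.93%), and 79 in POS (21.8%). With the replicate number as a block they were 0 in Arg, Phe and Thr, and of all genes 0, 0 and 1. Without NEG_2 the members called in Thr were 66 (9.26% of all genes) and in Phe 89 (13.4%), and without Arg_4 those in Arg were 27 (6.44%). Leaving out any library of Thr, or NEG_1, NEG_4 or NEG_6, gave 0 in Thr by limma, where between 61 and 82 members had an unadjusted p under 0.05, against 10.4% to 14.5% of all genes, and voom on the recovered reads also gave 0. In Phe, leaving out a library of Phe gave 0 to 12 (0.0413% to 1.59% of all genes), with NEG_1 left out 4 (0.767%), with NEG_4 12 (1.37%) and with NEG_5 7 (0.998%). In Arg the count was 2 without NEG_1 (0.239%), NEG_4 (0.561%), Arg_1 (0.305%) or Arg_2 (0.578%). It was 3 without NEG_5 (0.586%) and 5 without NEG_3 (0.644%) or NEG_6 (0.784%). The median SD of the members over the NEG libraries was 0.434, and 0.0966 without NEG_2, on the log2 scale. The score was larger than the NEG SD in 12 of the 100 members, and larger than the gene's median SD over the 12 treatments (0.209 in the median member) in 57.

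Whether the 10 single EAA differed among themselves was asked of each gene by limma's F test over the 60 libraries. The rule used the medians of these same libraries, so the members' counts are a description and nothing is read from them against the share of all genes. The test called 51 members at an adjusted p under 0.05, against 75.9% of all 12121 genes tested. Of the long members 46 of 80 were called and of the short ones 5 of 19. Without Leu_1 and Arg_4 the count was 91, against 90.9% of all genes. Without the 10 libraries numbered 5 it was 28, against 60.3%.

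Lists chosen on 5 of the 6 replicate numbers were read in the libraries of the number left out. These libraries entered that choice only through the filter on mean FPKM. The rule itself was set with earlier results of these data known. The NEG library left out lay below all 10 single-EAA libraries in 44 to 61 of the 100 genes, and in 81 for number 2, which holds NEG_2. Among all 8643 genes the same was true of 5.39% to 8.60%, and of 24.3% for number 2. The median of the 10 single-EAA libraries was above NEG in 93 to 100 of the 100 genes against 42.9% to 44.5% of all genes. The median difference was 0.239 to 0.446, and 1.18 for number 2. NEG was the lowest of the 12 libraries of the number in 27 to 60 of the 100 genes, and in 81 for number 2. Among all genes this was true of 4.5% to 6.35%, and of 22% for number 2. Each number holds 1 NEG library, and genes are not replicates, so these values are a description. Between these lists and the full one, 57 to 67 of the 100 genes were shared.

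The long members moved together between libraries of the same medium, which the rule did not use. Over the 72 libraries, with the median of the medium subtracted, the Pearson r of pairs of long members had a median of 0.778, and 77% of the 3160 pairs were over 0.5. For pairs of short members the median r was 0.0927, and for pairs of a short with a long member 0.106. For pairs of all 8643 genes it was 0.0296, and for pairs of non-members over 4000 bp 0.194. The 100 genes with NEG highest also moved together, with a median r of 0.72 and 83.5% of their pairs over 0.5. Without NEG_2, Leu_1, Arg_4 and POS_4 the median of long members was 0.663. Long members ran against the genes with NEG highest, with a median r of -0.71 over 8000 pairs, and -0.642 without the 4 libraries. All these values share the same libraries and scaling and carry no test.

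The differences from NEG also varied with gene length outside the list, as the genes that were no members showed. Among the 1544 of them of 4000 bp or more the median difference from NEG was above 0 in all 11 media, from 0.07 in Ile to 0.19 in Trp. Among the 656 from 500 to 1000 bp it was below 0 in all 11, from -0.20 in Thr to -0.53 in Val, and among the 3656 from 2000 to 4000 bp it was between -0.11 and -0.01. Among the 164 under 300 bp it was -0.05 in Arg and above 0 in the other 10 media, from 0.02 in Phe to 0.34 in Val.

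For each library a length balance was taken as the median of the 1542 non-members over 4000 bp minus that of the 656 non-members from 500 to 1000 bp, set to 0 at the NEG median. In NEG it was -1.14 in the lowest library and 0.115 in the highest, and in Val 0.0177, 0.792 and 0.866 in the lowest, median and highest. The level of the long members followed it over the 72 libraries with a Pearson r of 0.967 and a Spearman rho of 0.941. Without Leu_1 and NEG_2, the 2 farthest libraries, r was 0.945 and rho 0.936, and within media, with medians subtracted, r was 0.964 and rho 0.866. Within media and without the 4 libraries r was 0.881 and rho 0.841. Both quantities come from the same libraries, and r is given as a description with no p. The short members followed the balance less closely, with r of 0.491 over all libraries and 0.676 without Leu_1 and NEG_2. Within media r was 0.243, and 0.46 without the 4 libraries. Reads on genes ran the other way from the long members (r of -0.677 overall and -0.64 within media). So did the number of genes above 0 (r of -0.67 overall and -0.783 within media). Within media and without the 4 libraries these were -0.547 for reads and -0.627 for genes above 0.

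**Figure D5:**
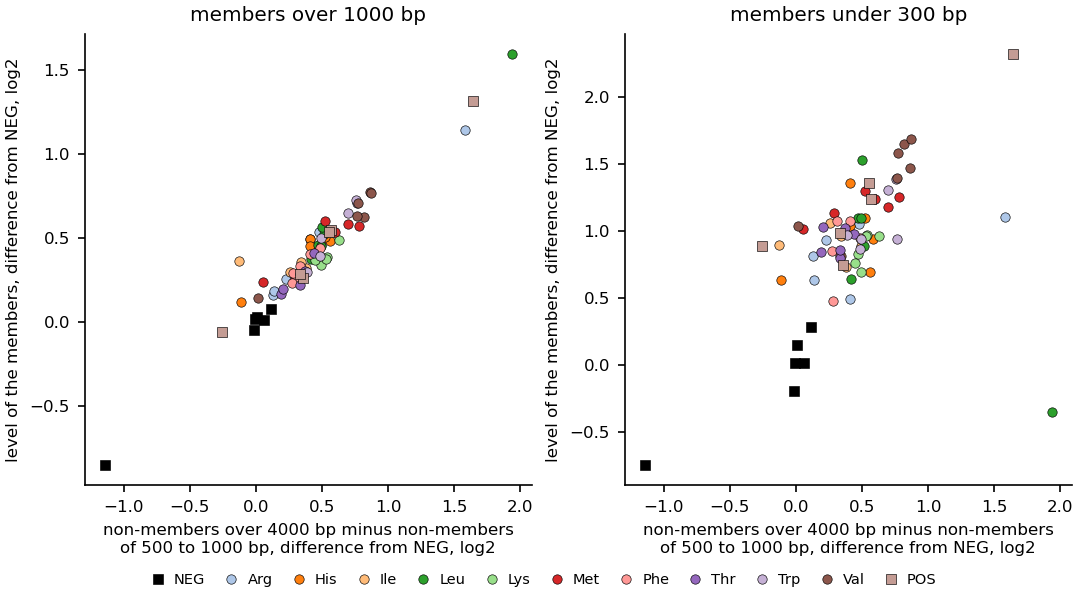
Each point is 1 of the 72 libraries. The horizontal axis is the length balance of genes outside the list and the vertical axis the level of the long (left) or short (right) members, both as log2 differences from NEG. The long members lie close to a line (r of 0.967), with NEG_2 at the lower end and Arg_4, POS_4 and Leu_1 at the upper end, while the short members scatter.

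With the trend on gene length removed from each library, a step chosen after the data were seen, the median difference of the members from NEG was smaller in 10 of the 11 media. The members were chosen by these same values, so what was left of the difference is a description. The median over the long members went from 0.67 to 0.56 in Val, from 0.51 to 0.49 in Leu, from 0.31 to 0.21 in Phe and from 0.22 to 0.14 in Thr. Over the short members it went from 1.62 to 1.05 in Val, from 1.12 to 0.82 in Met and from 0.67 to 0.63 in Arg. Of the 19 short members 18 stayed above NEG in Val and all 19 in the other 10 media. All 80 long members lay above NEG in Val, Leu, Met, Trp, His, Ile and Lys, 79 in Arg, 78 in Phe and 66 in Thr. Of all 8643 genes, 3177 lay above NEG in Thr, 3648 in Phe, 4185 in Arg and between 4300 (Val) and 4509 (Lys) in the other single EAA. The members had been chosen for lying above NEG. A list built anew on these values shared 50 genes with the 100 members, and 9 of its genes were over 4000 bp, against 50 before. Its median length was 1822 bp. What part of the members' difference arose in the cells and what part in the libraries was not tested.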

How the data were processed

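RNA-seq of BMECs was used, with 72 libraries in 12 media. The processing notes in the labels name HISAT2 (version 2.0.5), StringTie (version 1.3.3b) and featureCounts (version 1.5.0-p3), and the paper adds Trimmomatic and htseq-count. The genome build is not named in these sources. The authors deposited FPKM, whose library factors followed median-of-ratios size factors, so a scaling between libraries is already in the values. Each nonzero FPKM, once freed of length and factor, lay within 0.001 of a whole number of reads (100% of values). Columns were assigned by name.

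The members and lists were chosen with earlier results of these data known. The rule was applied to log2(FPKM + 1), a scale that understates changes of low genes. Tests used limma (version 3.58.1, R version 4.3.3) on 12121 genes, each medium with NEG, without pairing. Of the 66 pairs of same-numbered libraries with NEG, 18 had correlated deviations over 0.1, among them all 6 of Trp. Scripts were tested on simulated data, and used Python (version 3.11.15), numpy (version 2.4.6) and pandas (version 2.3.3). Alternatives were other pseudocounts, filters, scalings, voom, a replicate block and libraries left out. Lists of gene symbols and cell markers were not used, since no identifier matched a symbol. By rule, only the 2 highest scores were named by identifier. The length classes, length trend and the 4 libraries left out together were chosen after the data were seen.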

Additional observations from a re-analysis of the deposited data

Results flagged for a closer look

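Dixon's test on the 6 libraries of each medium was run on the level of all members, of the short and of the long members, on the length balance and on the 2 named members, which made 72 groups. A library stood apart in 16 of them, where chance flags about 1 in 20, and these measures share libraries. NEG_2 was the lowest NEG library in the level of all members (-0.829), of the long members (-0.849) and in the length balance (-1.14). Leu_1 was the highest of Leu in the same measures, at 1.57, 1.59 and 1.93, and Arg_4 the highest of Arg in the length balance, at 1.58. His_1 was the lowest of His, at 0.129 for all members, 0.118 for the long members and -0.112 in the length balance. Val_3 was the lowest of Val, at 0.199, 0.144 and 0.0176. For ENSBTAG00000042696, on log2(FPKM + 1), Leu_1 and POS_4 were at 0, with no read, and Ile_5 at 3.2 was the lowest of Ile.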

How the results depend on the processing

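Of the 263 alternative values, 203 kept within 1.5 times of the reported count. No member was called lower than NEG in the 231 of them that tested a medium against NEG. The rule had put NEG lowest in every member, so nothing is read from this. With the length trend removed, the treatment median lay above NEG in 86 members in Thr, 94 in POS, 98 in Phe and 99 in Arg and in Val, and in all 100 in the other 6 media. Of all 8643 genes it did so in 3177 in Thr, 4267 in POS, 3648 in Phe, 4185 in Arg and 4300 in Val. In the other 6 media it did so in 4370 (Trp) to 4509 (Lys). Without the filter on mean FPKM, the members called higher than NEG by limma were 4 in Arg (0.659% of all genes tested), 36 in Ile (6.78%), 47 in Lys (5.56%), 5 in Phe (0.722%) and 26 in POS (6.86%). In 1 fit of all 12 treatments they were 79 in Arg (12.3%), 52 in Lys (4.94%), 21 in Thr (2.93%) and 79 in POS (21.8%), so the share of all genes moved the same way. Scaled to total reads Arg had 24 members (5.17%), and by voom on the recovered reads Arg had 21 (5.03%) and Thr 0 (0.0165%). Total reads moved the median of all genes by 0.05 to 0.13 on the log2 scale, and the median ratio by at most 0.00012. Without NEG_2, Leu_1, Arg_4 and POS_4 the counts were 42 in Arg (10.8%), 89 in Phe (13.4%) and 66 in Thr (9.26%), and with the length trend removed 11 in Phe (1.68%). With the replicate number as a replicate block, limma called 0 members in Arg, Phe and Thr, and of all genes 0, 0 and 1. There 69, 86 and 91 members had an unadjusted p under 0.05, against 11.6%, 13.1% and 13.5% of all genes. In no other medium did the block move the count by over 1.5 times, and 21 of 72 libraries correlated best with their own number. All 6 same-number correlations were over 0.1 in Trp (0.102 to 0.244), where the block gave 98 members against 97. In each of the other media at least 1 was lower, down to -0.305, and the numbers were not taken as pairs there. Leaving out 1 library gave 2 to 27 members in Arg (0.239% to 6.44% of all genes), 72 to 92 in His (20.1% to 28%), 42 to 78 in Ile (11.8% to 20.1%), 52 to 80 in Leu (17.2% to 25.9%), 57 to 89 in Lys (10.3% to 18.8%), 62 to 87 in Met (13.3% to 21.5%), 0 to 89 in Phe (0.0413% to 13.4%), 0 to 66 in Thr (0% to 9.26%), 87 to 97 in Trp (9.29% to 19%), 87 to 96 in Val (21.3% to 30%) and 27 to 58 in POS (10.7% to 18.9%). The F test called 91 members without Leu_1 and Arg_4 (90.9% of all genes), and 28 to 63 with 1 replicate number left out (60.3% to 81.3%), on values that the rule had used. Of the 100 members, the list kept 89 without NEG_2, 59 at a mean of 1 FPKM, 56 with no filter, 49 with means in place of medians, 59 with total FPKM set equal, 62 with NEG lowest as the only condition, 50 with the length trend removed and 57 to 67 with 1 replicate number left out. The cause of these changes was not tested. Depth limits the short members, at a median of 7 reads in NEG.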

Other observations

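The table also holds 1980 genes under running names of its own, of which 100 had a mean of at least 5 FPKM. By the same rule 15 of these met the conditions (15%), against 4.77% of the Ensembl genes, and 9 had a score at or above that of the last member. Their highest score was 0.526, and the 9 had a median length of 3256 bp.

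NEG was the lowest of the 12 media in 8.1% of the 8643 genes and the highest in 20.5%. Val was lowest in 26.6%, POS in 18.8%, Thr in 16.3% and Leu in 9.18%, all more often than NEG. Trp and Ile were lowest in 1.63% each.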
